A study of Mus musculus with 6 samples.

Results

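The genes described here are Lin28a, Lin28b, Igf2bp1, Igf2bp2, Igf2bp3, Hmga1, Hmga2, Arid3a and Sox17, a set known from work on fetal blood progenitors. Their transcripts were followed in megakaryocyte progenitors of GATA1s mice, with 3 arrays of fetal liver and 3 of adult bone marrow. A probe set, the group of short probes that reports 1 transcript on an Affymetrix array, was taken as a member when the platform annotation gave it exactly 1 gene symbol and that symbol was 1 of the 9. This gave 20 probe sets of 7 genes, out of 45037 probe sets and 18193 named genes on the array. Igf2bp2 and Hmga1 had no such probe set and were not analysed here. All mice were C57BL/6. Bone marrow came from adults aged 12 to 18 weeks, and fetal liver was taken at E13.5. The sort kept CD41+ and CD150+ cells that were c-kit+ and that lacked Sca-1 and the lineage markers (Sca-1-, lin-). Both groups carried the GATA1s genotype, so the comparison is between tissues and ages within that genotype, and a full-length GATA1 control was not analysed here. How the GATA1s allele was made and how many animals each sample held are not given in the sources used here.

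GATA1 is the transcription factor that directs the megakaryocyte and erythroid lineages, and GATA1s is its amino-terminally shortened form. LIN28A and LIN28B are RNA-binding proteins with a cold-shock domain and zinc knuckles. They bind the precursors of the let-7 microRNAs and keep them from maturing. Mature let-7 represses many transcripts through its seed, and those of Hmga2, the Igf2bp genes, Arid3a and Lin28 itself are among the known targets. The IGF2BP proteins bind messenger RNAs through KH domains and affect their stability and translation. HMGA2 is an AT-hook chromatin protein that is abundant in embryonic tissue, ARID3A is a DNA-binding protein of the ARID family, and SOX17 is a transcription factor of endoderm, endothelium and fetal blood stem cells. In mouse blood, Lin28b and its targets are known for setting fetal traits of progenitors.

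The let-7 seed is shown because it links Lin28a and Lin28b to the other genes. In RefSeq (GRCm38.p6), 10 mature let-7 forms from 12 genes had the same bases 2 to 8, and 1 form, let-7j, differed there. The following 4 forms are written 5′ to 3′ with the seed in capitals. Levels of mature let-7 were not analysed here.
mmu-let-7a-5p: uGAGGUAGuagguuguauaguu
mmu-let-7d-5p: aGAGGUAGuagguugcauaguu
mmu-let-7g-5p: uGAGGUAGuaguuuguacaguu
mmu-miR-98-5p: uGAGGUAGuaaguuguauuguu

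The 250 bases before the transcription start were read for the measured members with an entry in RefSeq's GRCm38.p6 promoter table, namely Lin28b (chr10:45470202-45470451), Lin28a (chr4:134018817-134019066), Igf2bp3 (chr6:49214955-49215204) and Hmga2 (chr10:120476470-120476719). All 4 lie on the minus strand and are written here 5′ to 3′ along the gene. They are shown because 3 of these genes had higher signals in fetal liver and 1, Lin28a, had higher signals in bone marrow. Capitals mark matches to a GATA motif (AGATAA or TGATAA, on either strand) or to an E-box (CACGTG).
Lin28b: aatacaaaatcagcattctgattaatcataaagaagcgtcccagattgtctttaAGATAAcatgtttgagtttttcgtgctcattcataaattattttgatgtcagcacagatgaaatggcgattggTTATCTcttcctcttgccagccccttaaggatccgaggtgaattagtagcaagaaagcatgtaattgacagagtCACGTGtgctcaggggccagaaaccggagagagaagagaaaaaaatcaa
Lin28a: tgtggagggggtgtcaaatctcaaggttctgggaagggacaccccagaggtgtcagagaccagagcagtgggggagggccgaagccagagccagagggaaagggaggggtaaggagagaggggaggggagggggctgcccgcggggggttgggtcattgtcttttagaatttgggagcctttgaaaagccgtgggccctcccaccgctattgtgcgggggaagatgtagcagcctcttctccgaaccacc
Igf2bp3: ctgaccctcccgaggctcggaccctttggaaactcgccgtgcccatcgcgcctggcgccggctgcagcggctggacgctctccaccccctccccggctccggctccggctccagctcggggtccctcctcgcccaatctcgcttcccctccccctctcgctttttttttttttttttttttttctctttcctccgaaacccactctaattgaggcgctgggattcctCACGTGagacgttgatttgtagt
Hmga2: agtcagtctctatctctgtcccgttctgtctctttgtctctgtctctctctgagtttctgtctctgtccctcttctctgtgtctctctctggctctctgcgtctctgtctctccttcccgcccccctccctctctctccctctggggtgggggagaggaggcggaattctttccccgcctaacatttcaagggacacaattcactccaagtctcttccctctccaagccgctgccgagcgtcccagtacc

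The Lin28b stretch held 2 matches to AGATAA or TGATAA, at bases 196 to 191 and 123 to 118 before the start. The other 3 stretches held no match to these. Variants ending in G (AGATAG and TGATAG) were not searched for or marked, and the Hmga2 stretch holds CTATCT, the reverse complement of AGATAG. At least 1 match to AGATAA or TGATAA was found in 16.6% of the 32851 promoters in the table, and at least 2 in 2.72%. An E-box lay at bases 49 to 44 before the Lin28b start and at bases 23 to 18 before the Igf2bp3 start, and 6.02% of all promoters held at least 1. No motif overlapped another. The GC content was 39.2% for Lin28b, against 61.2% for Lin28a, 60.4% for Igf2bp3, 56.4% for Hmga2 and a median of 52.4% over all promoters. The Igf2bp3 stretch had 21 CpG dinucleotides, more than 83.7% of promoters, whereas the other 3 had 6 to 8 against a median of 6.00. These matches describe the letters only. GATA1 binding was not measured.

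The values are MAS5 signals on a linear scale. A control level of 10.6 was taken from 27 control probe sets for bacterial transcripts, as the 95th percentile of their signals over all arrays. These transcripts were assumed not to have been spiked in. A signal below the control level cannot be told from that background. The array medians ran from 65.9 to 74.6 in bone marrow and from 52.0 to 59.1 in fetal liver. Pearson's r between arrays (log2 signals) was 0.954 to 0.962 for a shared tissue and 0.920 to 0.932 for different tissues. Of 14 tested megakaryocyte markers, 3 were called higher and 1 lower in fetal liver, where 15.9% and 17.3% of all genes were called; under median centring 5 were higher and none lower. The brightest, Pf4, Itga2b (CD41) and Itgb3, were not called. The called genes, named here after their values were seen, were Tubb1 (228 ± 24.5 to 2568 ± 1015, SD, n = 3; log2 difference 3.41), Gp9 (1.23) and Gata1 (0.49) on the higher side and Kit (-0.62) on the lower. The Gata1 call was lost without fetal liver replicate 2, and the Kit call without bone marrow replicate 2 or 3 or fetal liver replicate 3. Only 1 of the 2 tested Kit probe sets was called. Fetal liver replicate 1 deviated from the other fetal liver arrays by a median of -0.72 on this list. Gata1 itself was bright on every array, at 2453, 3326 and 3218 in bone marrow and 3931, 4615 and 4019 in fetal liver, which does not check the genotype because both groups share it. Markers of granulocytes and monocytes were lower in fetal liver for 14 of 14 genes, with a summed signal of 56999 to 71379 in bone marrow and 7349.9 to 9292 in fetal liver. In these bulk samples, fewer cells of a type and less RNA per cell cannot be told apart.

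A difference between tissues is given as the mean log2 signal in fetal liver minus that in bone marrow, with its standard error (SE). It was tested with limma over the 27022 probe sets whose mean log2 signal exceeded the 40th percentile (a signal of 22.9), and it was called at an adjusted p below 0.05. Of the 20 member probe sets, 14 passed that filter. A probe set that is dim in 1 tissue passes only if it is bright in the other, so the count of calls among the 14 is no measure of the programme as a whole. The 14 comprised 13 called higher in fetal liver, where 11.8% of all tested probe sets were called higher, and 1 called lower, where 15.0% were called lower. Over all 20, the arrays of the tissues did not overlap for 17, with fetal liver above for 15 and bone marrow above for 2. Among all 45037 probe sets, 15.6% had fetal liver above without overlap and 17.1% had bone marrow above.

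**Figure D1:**
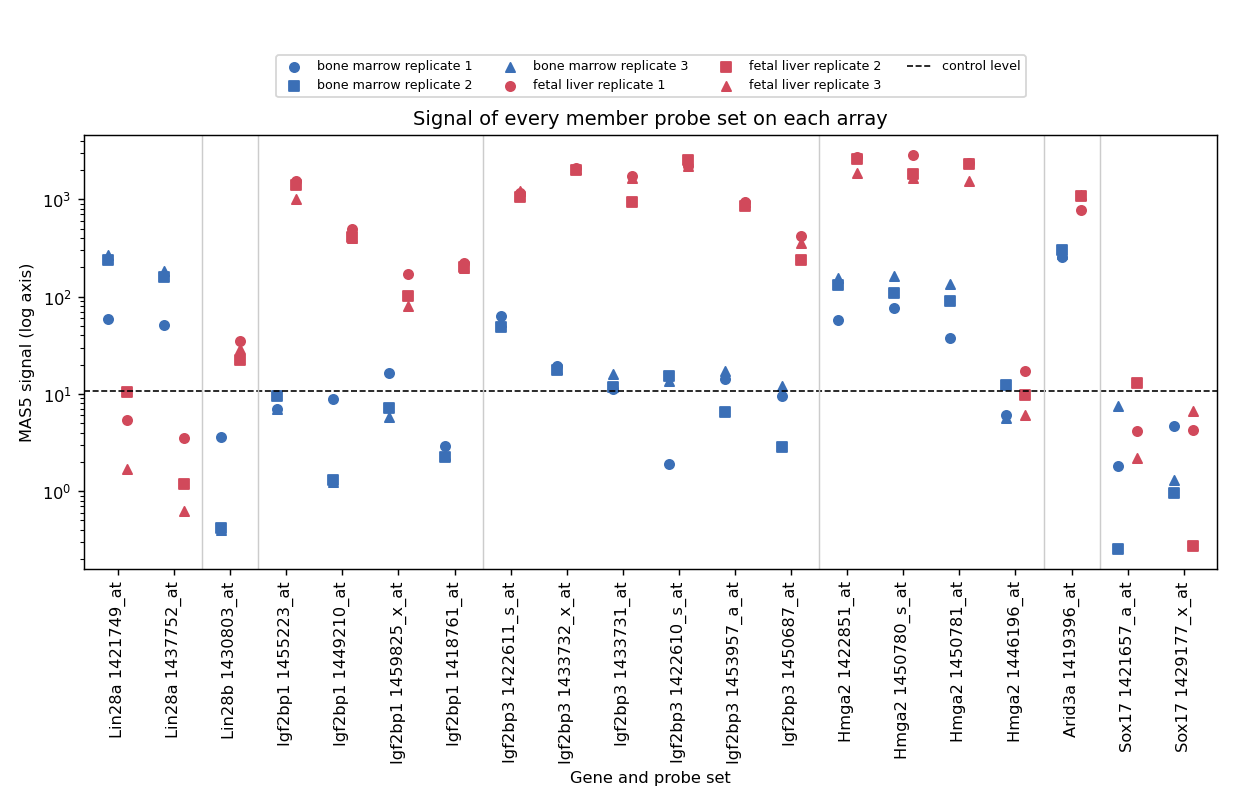
MAS5 signal (log axis) of the 20 member probe sets on each of the 6 arrays, with bone marrow in blue, fetal liver in red, a symbol for each replicate and a dashed line at the control level of 10.6. Fetal liver lies above bone marrow for 15 probe sets, bone marrow lies above for both Lin28a probe sets, and the arrays overlap for 1 Hmga2 and both Sox17 probe sets.

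Lin28a and Lin28b, the let-7 inhibitors, differed between the tissues in opposite directions. Lin28a was lower in fetal liver. Its probe set 1421749_at read 58.9, 236 and 269 on the 3 bone marrow arrays and 5.42, 10.4 and 1.68 on the fetal liver arrays. The fetal liver signals were all under the control level and the bone marrow signals all above it, although bone marrow replicate 1 was well below the other two. The log2 difference was -5.09 ± 0.74 (SE, n = 3 arrays per tissue; limma adjusted p = 7.84e-04). Because the fetal liver signal was not above background, the fold is a bound, and Lin28a was at least 14.6-fold lower. Here and below such a bound divides the geometric mean of the bright tissue by that of the dim tissue after each array under the control level has been set to it. With ordinary t statistics in place of limma's moderated ones the adjusted p was 0.0528, and the call was lost.

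The other Lin28a probe set, 1437752_at, gave 51.3, 161 and 184 in bone marrow and 3.55, 1.19 and 0.632 in fetal liver. It had the same pattern of arrays, again with bone marrow replicate 1 lowest of its tissue and every fetal liver array below the control level. It fell below the filter and was not tested with the others. Its level was at least 10.8-fold lower in fetal liver, and in the fit with no filter the adjusted p was 3.25e-04, where 9.59% of all probe sets were called lower.

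Lin28b was measured by 1 probe set, 1430803_at, which read 35.1, 22.4 and 29.0 in fetal liver and 3.60, 0.421 and 0.395 in bone marrow. All 3 fetal liver arrays were above the control level and all 3 bone marrow arrays below it, but the fetal liver signals were only a few times that level. The probe set did not pass the filter. In the fit with no filter, where 6.67% of all probe sets were called higher, the log2 difference was 5.07 ± 0.94 (SE, n = 3 per tissue) with an adjusted p of 0.00417. With signals under the control level raised to it the log2 difference was 1.42, and the level was at least 2.68-fold higher.

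The spread among the bone marrow arrays was wide for Lin28a. Replicate 1 deviated from the mean of replicates 2 and 3 by -2.10 on the log2 scale for 1421749_at and by -1.74 for 1437752_at, while 5% of all tested probe sets deviated by less than -0.61 and 5% by more than 0.77 on that array. On the same array the median deviation of 9 tested erythroid markers was -1.23, that of 7 lymphoid markers -0.92, that of 14 granulocyte and monocyte markers -0.30 and that of 14 megakaryocyte markers 0.18. For 5 mast cell and basophil markers it was -0.56, and for 6 macrophage markers 0.34. The Hmga2 probe sets also deviated downward there, by -1.30, -0.81 and -1.59, whereas Arid3a deviated by -0.19. The Igf2bp3 sets 1422611_s_at, 1433732_x_at and 1433731_at, also above the control level on all bone marrow arrays, deviated by 0.29, 0.11 and -0.29. Without bone marrow replicate 1 the log2 difference of 1421749_at was -5.79 and the adjusted p 4.31e-04, and without fetal liver replicate 3 it was -4.37 with an adjusted p of 0.00150.

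**Figure D2:**
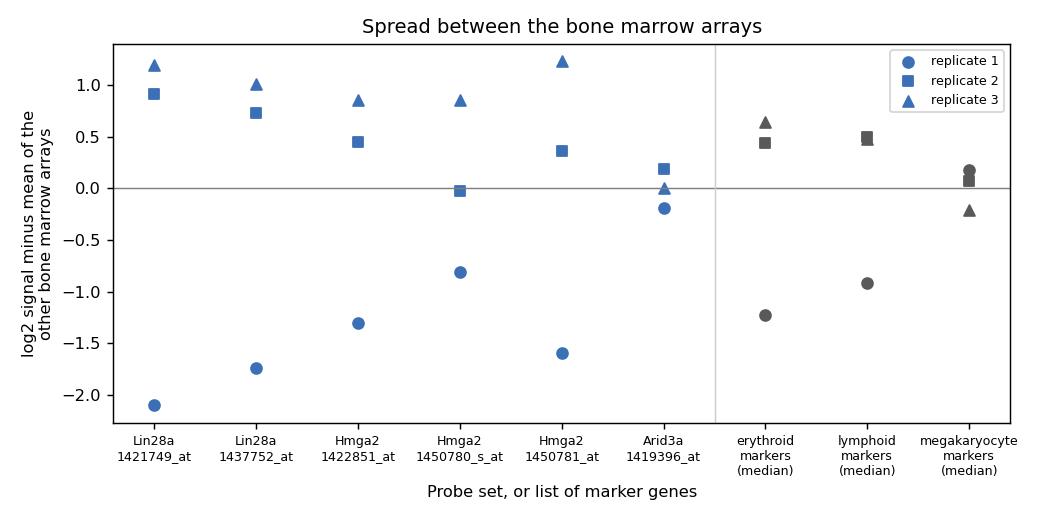
Log2 signal of each bone marrow array minus the mean of the remaining arrays of that tissue, for 2 Lin28a, 3 Hmga2 and 1 Arid3a probe sets (blue) and as the median over 3 marker lists (grey). Replicate 1 is the lowest array for each of the 6 probe sets and for the erythroid and lymphoid markers, with Lin28a at -2.10 and -1.74. Other members are not shown, and replicate 1 was the highest bone marrow array for Igf2bp3 1422611_s_at and 1433732_x_at.

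Markers of other blood lineages moved between tissues in the same direction as Lin28a. In addition to the granulocyte and monocyte list, 6 of 6 tested macrophage markers (summed signal 1613 to 2022 in bone marrow, 311 to 328 in fetal liver), 4 of 5 mast cell and basophil markers (10287 to 10768 against 6239 to 7154) and 5 of 7 lymphoid markers (3330.4 to 5004 against 1479 to 1622) were lower in fetal liver. The brightest mast cell and lymphoid genes, Gata2 (6754 ± 88.3 in bone marrow, 6552 ± 506 in fetal liver; SD, n = 3) and Cd79b (1482 ± 142, 1268 ± 127), were not called. Fcer1a, the IgE receptor alpha chain and the next brightest of its list by mean linear signal, read 2601, 2151 and 2234 in bone marrow and 0.154, 4.97 and 0.857 in fetal liver. Ebf1, a B cell transcription factor and the next brightest lymphoid gene by mean linear signal, read 492, 887 and 993 against 20.5, 16.5 and 23.8. By mean log2 signal the next brightest were instead Cpa3 (log2 difference -0.84 ± 0.25 SE) and Vpreb1 (-1.94 ± 0.26 SE), with smaller differences. Marco, Cma1, Mcpt4 and Pax5 were below the control level in both tissues, which for a list gene means the geometric mean of each tissue. Of 9 erythroid markers, 3 were called lower and 1 higher (18661 to 30311 against 15614 to 17786). Over all genes, 17.3% were called lower and 15.9% higher. Hba-a1 was below the control level in both tissues by a probe set with 1 gene symbol. Probe sets with several symbols were not used, so this does not show that alpha-globin RNA was absent. Among pluripotent and germ cell genes, where Lin28a is also known, Nanog, Sox2, Zfp42, Dppa3, Dazl and Tdgf1 were below the control level in both tissues. The only tested gene, Kit, was called lower by 1 of its 2 tested probe sets. The part of any of these cells in the Lin28a difference was not tested.

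Igf2bp1 was near or below background in bone marrow and clearly present in fetal liver. Its probe set 1455223_at read 7.06, 9.56 and 6.95 in bone marrow and 1557, 1417 and 1013 in fetal liver. No bone marrow array reached the control level, and every fetal liver array was far above it. The log2 difference was 7.39 ± 0.25 (SE, n = 3 per tissue; limma adjusted p = 2.14e-07), and the level was at least 123-fold higher. Probe set 1449210_at gave at least 40.8-fold (adjusted p = 3.92e-05) and 1459825_x_at at least 9.11-fold (adjusted p = 3.74e-04), the latter with 1 of 3 bone marrow arrays above the control level. Probe set 1418761_at, below the filter, read 222, 202 and 195 in fetal liver and 2.23 to 2.89 in bone marrow. The tissues separated without overlap in all 4 probe sets of the gene.

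Igf2bp3 had 6 probe sets, and all of them rose in fetal liver. Probe set 1433732_x_at read 19.3, 17.6 and 18.2 in bone marrow and 2084, 2010.0 and 2057 in fetal liver. Both tissues were above the control level and their arrays lay close together, so the fold itself could be measured. It was 112, with a log2 difference of 6.80 ± 0.17 (SE, n = 3 per tissue; limma adjusted p = 3.74e-08). The brightest probe set by mean log2 signal over all arrays, 1422611_s_at, read 64.0, 49.1 and 55.4 in bone marrow and 1175, 1051 and 1217 in fetal liver. The log2 difference there was smaller, at 4.36 ± 0.17 (adjusted p = 4.01e-07), a fold of 20.5. Probe set 1433731_at read 11.3, 11.7 and 16.2 against 1754, 947 and 1676, a log2 difference of 6.77 ± 0.28.

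The other 3 Igf2bp3 probe sets had at least 1 bone marrow array under the control level. Their bounds were at least 178-fold for 1422610_s_at, 66.5-fold for 1453957_a_at and 29.7-fold for 1450687_at, with adjusted p of 1.64e-05, 1.74e-06 and 4.45e-05. In Affymetrix's naming, probes of an _s_at set are shared by several transcripts and an _x_at set may pick up similar sequences, so these sets cannot be given to 1 transcript form with certainty. The sets with the plain _at ending, 1433731_at and 1450687_at, separated the tissues as well.

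Hmga2, the chromatin protein, was present in bone marrow and higher in fetal liver. Probe set 1422851_at read 58.1, 131 and 157 in bone marrow and 2763, 2613 and 1889.9 in fetal liver. All 6 arrays were above the control level, and the lowest fetal liver array was far above the highest bone marrow array. The log2 difference was 4.49 ± 0.33 (SE, n = 3 per tissue; limma adjusted p = 1.02e-05), a fold of 22.5. Probe sets 1450780_s_at and 1450781_at gave log2 differences of 4.22 ± 0.29 and 4.72 ± 0.40, each less than 1 SE from the first. The remaining set, 1446196_at, behaved otherwise. It read 6.05, 12.4 and 5.71 in bone marrow and 17.1, 9.65 and 6.11 in fetal liver, with overlapping arrays of which 4 of 6 were below the control level. It did not pass the filter, and with no filter its adjusted p was 0.765.

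Arid3a differed least among the called members. Its probe set 1419396_at read 253, 303 and 277 in bone marrow and 783, 1089 and 1106 in fetal liver. The arrays did not overlap, and both tissues were well above the control level. The log2 difference was 1.83 ± 0.17 (SE, n = 3 per tissue; limma adjusted p = 4.44e-05), a fold of 3.54.

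Sox17 was not detectable above background in either tissue. Probe set 1421657_a_at read 1.82, 0.254 and 7.54 in bone marrow and 4.12, 13.1 and 2.20 in fetal liver. Probe set 1429177_x_at read 4.69, 0.952 and 1.31 against 4.23, 0.272 and 6.71. The arrays overlapped for both, and 11 of the 12 signals were below the control level. Neither passed the filter, and the adjusted p with no filter was 0.436 and 0.962. No fold is given for a gene that is under background on both sides. Among 8 tested endothelial markers, a cell type in which Sox17 is known, 3 were called higher and 1 lower in fetal liver (summed signal 5257 to 6334 in bone marrow, 6359 to 8322 in fetal liver). Over all genes, 15.9% were called higher and 17.3% lower. Sox7 and Sox18, the near relatives of Sox17, were below the control level in both tissues.

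**Figure D3:**
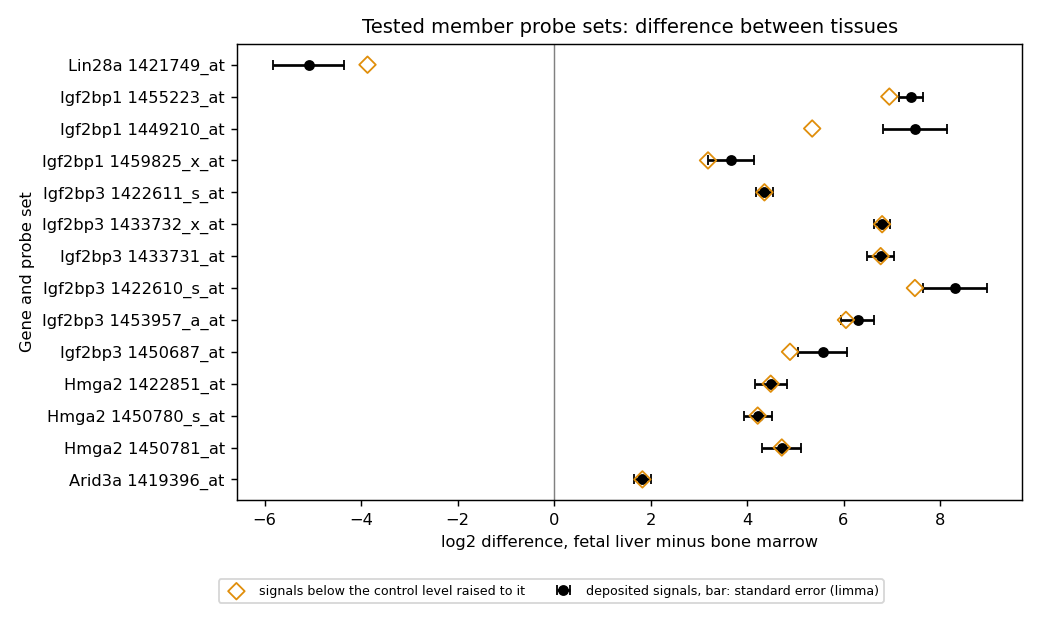
Log2 difference (fetal liver minus bone marrow) of the 14 tested member probe sets, with limma's standard error as bars (n = 3 arrays per tissue) and, as open diamonds, the difference after signals below the control level were raised to it. The diamonds stay on the same side of 0 for all 14 and lie nearer to 0 where 1 tissue was under background, as for Lin28a, where -5.09 became -3.87.

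The members differed in how far they stood out from the rest of the array. Among 26296 tested probe sets above the control level on all 6 arrays, ordered by the size of the rise in fetal liver, Igf2bp3 held ranks 1, 2 and 8. Hmga2 held ranks 3, 6 and 11, and Arid3a rank 222. The Igf2bp3 sets at ranks 1 and 2 had bone marrow signals near the control level, so the exact order is uncertain. Lin28a, Igf2bp1 and the remaining Igf2bp3 sets have no rank, because at least 1 array lay under the control level. Over all tested probe sets, dim ones included, 56 had a log2 difference of 4 or more, 311 had one of -4 or less, and the median was 0.00. Liver markers were read beside these rises. Dlk1, an imprinted gene of fetal tissues that is also a hepatoblast marker, rose from 10.6, 11.4 and 19.5 to 1316, 1104 and 871. Krt18, a keratin, fell from 1647 ± 113 to 605 ± 138 (SD, n = 3; log2 difference -1.47 ± 0.17 SE), and Afp, the alpha-fetoprotein gene, fell from 221 ± 24.8 to 62.6 ± 12.2 (-1.84 ± 0.23 SE). Of 5 tested hepatoblast markers 2 were called higher and 2 lower (summed signal 1923 to 2148 in bone marrow, 1543 to 2289 in fetal liver), Foxa2 was below the control level in both tissues, and Alb, the albumin gene, read 30.9, 26.4 and 27.6 in fetal liver and 16.3, 4.75 and 2.14 in bone marrow. Of 3 tested stromal markers 1 was called lower and none higher (483 to 651 against 319 to 492), and Col3a1, Pdgfra, Dcn, Lum and Lepr were below the control level in both tissues. Beside these hepatoblast and stromal counts, 15.9% of all genes were called higher and 17.3% lower.

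**Figure D4:**
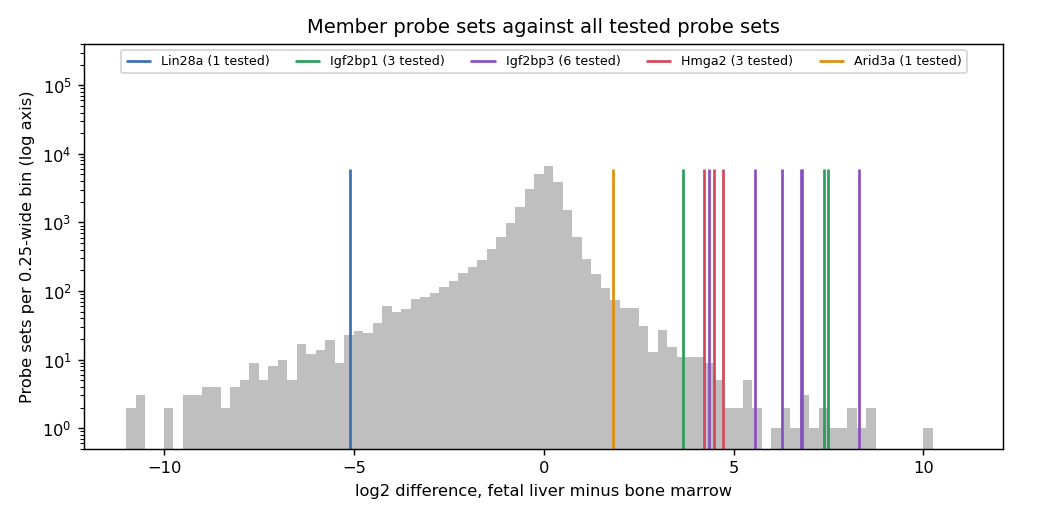
Histogram (log count axis) of the log2 difference, fetal liver minus bone marrow, over the 27022 tested probe sets in bins of 0.25, with a vertical line for each of the 14 tested member probe sets coloured by gene. The Igf2bp1, Igf2bp3 and Hmga2 lines lie between 3.67 and 8.31, Arid3a at 1.83 and Lin28a at -5.09.

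Genes that make and turn over let-7 were called in both directions. For this and the following lists each gene was taken by its brightest tested probe set; of 11645 genes so taken, 15.9% were called higher and 17.3% lower, with a median log2 difference of 0.04. Among 17 let-7 biogenesis and turnover genes, 3 were called higher and 2 lower, with a median of 0.08. Tarbp2, the double-stranded RNA-binding partner of Dicer, rose from 997 ± 145 to 3193 ± 426 (SD, n = 3; log2 difference 1.68 ± 0.14 SE, adjusted p = 2.02e-05). Dicer1, which cuts the let-7 precursor, rose from 1628 ± 131 to 2938 ± 157 (0.85 ± 0.10 SE, adjusted p = 1.80e-04). Tut7, a terminal uridylyltransferase that marks LIN28-bound precursors for decay, was lower at 2046 ± 125 against 2889 ± 182 (-0.50 ± 0.09 SE, adjusted p = 0.00364). Ago4, an Argonaute protein, was lower by the same test (-0.69 ± 0.20 SE, adjusted p = 0.0277), a call lost without bone marrow replicate 2 or 3 or fetal liver replicate 2 or 3 (adjusted p up to 0.0901). Only 1 of the 2 tested Ago4 probe sets was called. Khsrp and Hnrnpa1, 2 bright RNA-binding proteins of the list, had log2 differences of 0.01 and 0.04 and were not called. Drosha, Tut4 and Xpo5 are named after their values were seen. Drosha was called higher (0.28 ± 0.09 SE, limma adjusted p = 0.0431), a call lost without bone marrow replicate 1 or 3 or fetal liver replicate 2 or 3. Tut4 and Xpo5 were not called by their brightest sets, but 3 of 5 tested Tut4 sets were called lower and 1 of 2 Xpo5 sets higher.

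These small differences depend on how the arrays are scaled. The fetal liver arrays had lower medians, and centring each array on its median moved the median over all tested probe sets from 0.00 to 0.34. Under median centring the let-7 biogenesis list had 9 genes called higher and none lower, and Tut7 lost its call (-0.16, adjusted p = 0.352); under quantile normalization it had 3 higher and 1 lower. Dicer1 and Tarbp2 were called higher under both.

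Known let-7 targets other than the members were also called in both directions. Of 24 tested, 8 were called higher and 6 lower, with a median log2 difference of 0.26; the counts were 10 and 6 under quantile normalization and 15 and 4 under median centring. Thbs1, the secreted glycoprotein thrombospondin of platelet granules, rose from 665 ± 239 to 3156 ± 368 (SD, n = 3; 2.31 ± 0.23 SE, adjusted p = 8.43e-05). Arid3b, a close relative of Arid3a, rose from 174 ± 16.7 to 523 ± 82.1 (1.58 ± 0.17 SE, adjusted p = 1.43e-04). Cdc34, a ubiquitin-conjugating enzyme, rose from 1133 ± 44.1 to 2445 ± 464 (1.09 ± 0.14 SE, adjusted p = 3.21e-04), and Dicer1 belongs to this list too. The called genes on the lower side included the cell cycle genes Ccnd1, Ccnd2 and Cdk6, named here after their values were seen, at -1.42 ± 0.25, -0.98 ± 0.15 and -0.54 ± 0.08 (SE). The Cdk6 call was lost under median centring (-0.20, adjusted p = 0.187), and those of Ccnd1 and Ccnd2 with ordinary t statistics (adjusted p = 0.0715 and 0.0537). Mycn was bright and not called, at 0.01. Rrm2 was bright and not called by its brightest probe set (0.22, limma adjusted p = 0.0523), but 2 of its 3 tested probe sets were called higher.

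Transcripts known to be bound by IGF2BP proteins gave 1 gene higher and 3 lower of 6 tested, with a median of -0.21; median centring gave 3 higher and 2 lower. Myc, whose coding region is a classical binding site, was lower at 1742 ± 356 against 3171 ± 207 (SD, n = 3; -0.88 ± 0.15 SE, adjusted p = 0.00174). Ptgs2, the inducible cyclooxygenase, read 1270.5, 1135 and 1462 in bone marrow and 414, 132 and 21.4 in fetal liver (-3.60 ± 0.81 SE, adjusted p = 0.00921), a call lost with a robust variance prior (adjusted p = 0.0578). Without fetal liver replicate 3 the Ptgs2 difference was -2.46 (adjusted p = 0.00234). Cd44, an adhesion receptor, was lower (-0.46 ± 0.11 SE, adjusted p = 0.0124) but not under median centring (-0.12, adjusted p = 0.407). Btrc, a ubiquitin ligase subunit, was higher (0.56 ± 0.15 SE, adjusted p = 0.0202), a call lost without bone marrow replicate 2 or 3 or fetal liver replicate 2 or 3 (adjusted p up to 0.0684). Only 1 of the 3 tested Btrc probe sets was called. Actb and Pabpc1, at 0.08 and 0.04, were not called. Igf2, the transcript the family is named for, fell below the filter and was not tested. It read 45.6, 22.1 and 58.0 in fetal liver and 21.0, 3.06 and 4.23 in bone marrow, where 2 arrays were under the control level, and was at least 2.92-fold higher by that level. It was named after its values were seen.

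The protein families of the members were examined to see whether their relatives moved alike. Of 13 tested genes with a cold-shock or KH domain, 2 were called higher and none lower (median 0.15; 9 higher and none lower under median centring). Pcbp4, a poly(C)-binding KH protein, rose from 145 ± 19.2 to 584 ± 116 (SD, n = 3; 2.01 ± 0.19 SE, adjusted p = 6.02e-05). Carhsp1, a small cold-shock domain protein, was called at 0.66 ± 0.21 SE (adjusted p = 0.0393), and the call was lost without bone marrow replicate 1 or 2 or fetal liver replicate 2 or 3 (adjusted p up to 0.139). Among 6 other high-mobility-group genes, 1 was called in each direction (median 0.22; 5 higher and 1 lower under median centring). Hmgn3, a nucleosome-binding protein, fell from 3404 ± 146 to 1268 ± 89.5 (-1.43 ± 0.10 SE, adjusted p = 6.25e-06). Hmgb3 was called at 0.42 ± 0.11 SE (adjusted p = 0.0182), lost without bone marrow replicate 1 or 3 (adjusted p up to 0.0634).

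Among 12 other ARID genes 3 were called higher and 4 lower (median -0.02; 6 and 3 under median centring). Arid3b rose, as given above, whereas Arid5b fell from 290.4 ± 12.7 to 99.1 ± 11.8 (SD, n = 3; -1.56 ± 0.18 SE, adjusted p = 2.18e-04). Arid1b, a subunit of the BAF chromatin remodelling complex, was lower (-0.72 ± 0.12 SE, adjusted p = 0.00190), and so was Arid5a (-2.32 ± 0.43 SE, adjusted p = 0.00316; 1 of 3 fetal liver arrays under the control level). Of 5 other tested SOX genes 3 were called lower and none higher (median -0.63), and 1 was higher and 2 lower under median centring. Sox6, a SOX factor that silences embryonic globin, fell from 1325 ± 128 to 147 ± 53.1 (SD, n = 3; -3.22 ± 0.23 SE, adjusted p = 9.10e-06). Sox4 was lower as well (-1.28 ± 0.27 SE, adjusted p = 0.00662). Sox13 was called lower (-0.63 ± 0.20 SE, adjusted p = 0.0394), a call that held in 1 of the 6 fits that each left out an array (without fetal liver replicate 1).

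**Figure D5:**
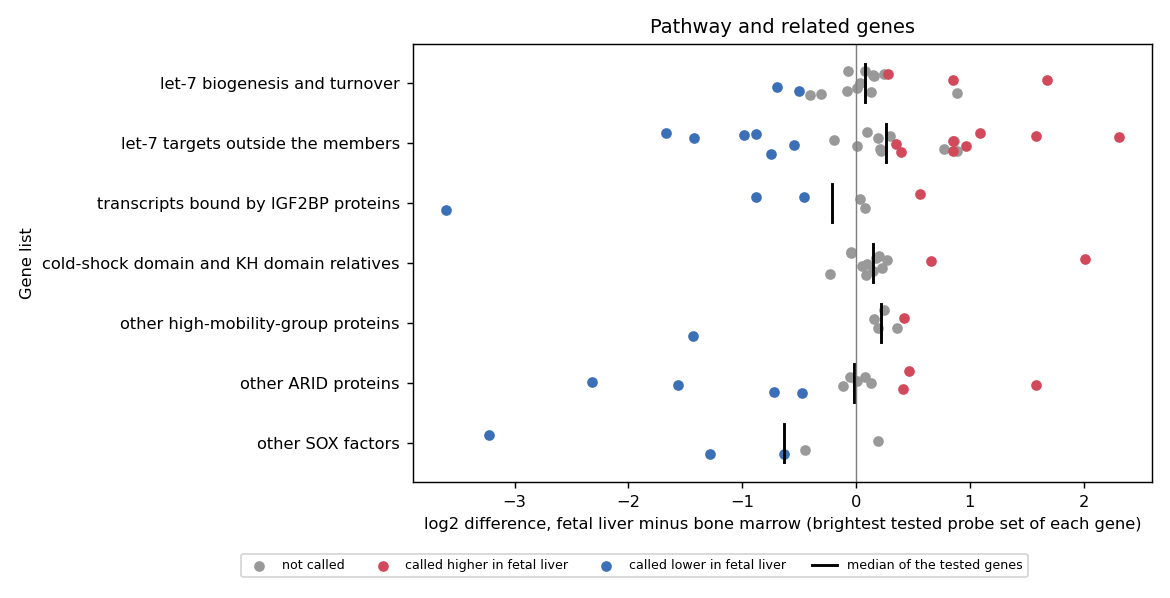
Log2 difference (fetal liver minus bone marrow) of every tested gene in 7 lists of pathway genes and relatives, taken by the brightest tested probe set, with genes called higher in red, called lower in blue and not called in grey, and the list median as a bar. The medians lie between -0.63 (other SOX factors) and 0.26 (let-7 targets outside the members), against 0.04 over all 11645 genes.

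For Lin28b and Lin28a, the genes whose log2 signal over the 6 arrays was most like theirs are given as a description. The 6 arrays share the tissue difference, so a high correlation (Pearson r) is common among genes that differ between tissues. All 3 bone marrow signals of Lin28b and all 3 fetal liver signals of Lin28a were below the control level, so the exact r and the order of the genes rest in part on background scatter and are not a measured likeness. For Lin28b these were Kcnj5 (r = 0.999), Cited4 (0.999), Trim6 (0.994), C920009B18Rik (0.992) and Maged2 (0.991), and 184 of 11645 tested genes (1.58%) had r above 0.95. For Lin28a they were Mycbp2 (0.997), Olfml2b (0.995), Zfp398 (0.995), Pirb (0.995) and Tut7 (0.994), and 342 of 11644 (2.94%) had r above 0.95.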

How the data were processed

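Total RNA of the sorted cells was read on 6 Affymetrix arrays. For each array and probe set the deposited value is an intensity on a linear scale. Per the submitters' processing notes the authors used MAS5, with a version not given in the sources used here. In the deposited intensity values every array had a trimmed mean (2% off each end) of 500.0. MAS5 adds no offset, so low signals scatter widely on the log scale. The labels call the samples biological replicates without naming animals. A p-value here sets the tissue difference against the spread of these samples only, with variances moderated over the tested probe sets. Precision is limited by the number of arrays. An exact two-sided permutation test of 3 arrays against 3 cannot go below 0.1, and none was used.

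Of 45037 probe sets other than controls, 34945 had 1 gene symbol, 932 several and 9160 none listed. Symbols come from GEO's platform annotation. Signals were log2-transformed with no offset and filtered at the 40th percentile of the mean, which left 27022. limma 3.58.1 (R 4.3.3; lmFit and eBayes with an intensity trend) fitted tissue alone, with Benjamini-Hochberg adjustment over all 27022 and a threshold of 0.05. The fit was tested on simulated data with normal noise and differences smaller than those of most members. That test does not check the member calls. Python 3.11.15 (numpy 2.4.6, pandas 2.3.3, matplotlib 3.10.9) made the tables and figures.

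The members and the gene lists were chosen with earlier results of these data known, so no list was tested. All member probe sets were named; per pathway list, up to 4 genes with the smallest adjusted p and up to 2 bright genes not called; per marker list, the brightest genes and those below the control level; and the 5 genes most correlated with Lin28b and with Lin28a. Marker names given are a selection of these. The alternatives were leaving out each array, a replicate block, array weights, ordinary t statistics, a variance prior without trend or a robust one, median centring, quantile normalization, a floor at the control level, an offset of 7.54, a stricter filter (60th percentile) or none, and 1 value per gene (its brightest probe set or their mean).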

Additional observations from a re-analysis of the deposited data

How the results depend on the processing

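Across 19 alternatives, 239 of 240 tests of the 14 member probe sets or of their gene means kept their direction and their side of the threshold, and 0 reversed. The exception was Lin28a with ordinary t statistics (log2 difference -5.09, adjusted p = 0.0528), which left 0 member probe sets and 0 member genes called lower. A gene mean was counted under the brightest probe set. Probe sets that a setting did not test, as with the stricter filter, are not among the 240. Over all its alternatives the Lin28a log2 difference ran from -6.25 to -3.68, that of Igf2bp1 1449210_at from 5.34 to 8.42 and that of Igf2bp3 1422610_s_at from 7.13 to 8.85; dim bone marrow signals enter each of the last 2. The filter set the counts, because it changed which probe sets were tested: with no filter 15 member probe sets were called higher and 2 lower, and 5 member genes higher and 1 lower, and at the 60th percentile (a signal of 150.3) 6 were called higher and 0 lower, with 0 genes called lower by their brightest set. Leaving out any array left 13 member probe sets higher and 1 lower, and 4 member genes higher and 1 lower. For the probe sets below the filter, an offset gave log2 differences of 2.02 for Lin28b, -3.74 for Lin28a 1437752_at and 4.41 for Igf2bp1 1418761_at.

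Replicate numbers are shared between the tissues, and the labels do not say whether they pair the samples. Deviations of same-numbered arrays correlated at 0.00, 0.11 and -0.16, and those of different-numbered arrays at -0.11 to 0.12. With 3 arrays per tissue, these values cannot decide whether the numbers mark pairs or a batch. The main fit did not use the numbers. With the replicate block, 13 member probe sets were called higher and 1 lower, and 4 member genes higher and 1 lower; over all probe sets 2930 were higher and 3974 lower, against 3189 and 4048 without it.

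Scaling moved the counts over all probe sets: calls higher in fetal liver made up 44.1% of calls as deposited, 55.4% after quantile normalization (4279 higher, 3438 lower) and 78.7% after median centring (9848 higher, 2667 lower). Among the pathway lists, ordinary t statistics left 1 lower call for let-7 biogenesis, 1 for let-7 targets, 0 in either direction for IGF2BP-bound transcripts, 1 higher and 2 lower for ARID genes, 0 higher for high-mobility-group genes and 1 lower for SOX genes. With no variance trend the let-7 biogenesis list kept 1 lower call, and the cold-shock and KH, high-mobility-group and ARID lists 1, 0 and 1 higher calls. With array weights the cold-shock and KH list had 5 higher and 1 lower, and the high-mobility-group list 2 higher. The IGF2BP-bound list had 2 higher calls with no filter and 0 when probe sets were averaged by gene. The causes of these shifts were not tested.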
